A study of Mus musculus with 37 samples.

Results

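The 10 genes described here write, read or erase the m6A mark, a methyl group on adenosines inside messenger RNA. They are the writers Mettl3, Mettl14 and Wtap, the readers Ythdf1, Ythdf2, Ythdf3, Ythdc1 and Ythdc2, and the erasers Alkbh5 and Fto. They were chosen by name, found by gene symbol, and are 10 of the 54752 mouse genes in the gene count tables, with 62 of the 138835 transcripts in the transcript table. The study sequenced RNA of single mouse oocytes by Smart-seq2, a method that copies whole polyadenylated transcripts, at 3 stages: GV, with the germinal vesicle still whole, MI, in the metaphase of the first meiotic division, and MII, stopped in that of the second. The 37 oocytes fall into 2 batches as the labels name them, batch A with 6 GV and 6 MII oocytes and batch B with 10 GV and 15 MI oocytes. All came from C57BL/6 females aged 6 to 8 weeks that had been given 5 IU of the hormone PMSG. GV oocytes were taken from ovaries 48 h after PMSG. MII oocytes were collected from the oviduct 15 h after a later dose of 5 IU hCG, and MI oocytes were GV oocytes that had been cultured for 8 h in M16 medium. GV is the stage that both batches hold, so stages were compared within a batch, and MI was never set directly against MII. Stage goes with culture in MI and with hCG in MII, so these cannot be told apart. The oocytes carry no animal names, so how many females they came from is unknown here.

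In mammalian cells METTL3 and METTL14 form the methyltransferase, WTAP holds it at its targets, YTH-domain proteins bind the mark, and FTO and ALKBH5 remove it. A growing oocyte stores messenger RNA, stops transcription before it resumes meiosis, and then matures by translating and degrading the stored RNA. Female mice that lack Ythdf2 or Ythdc1 in oocytes are known to be infertile, and loss of Ythdc1 in oocytes alters RNA processing in the nucleus.

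The total of expected counts per oocyte, the read numbers that RSEM assigns to genes, ran from 7509875 to 12648629 in the GV oocytes and from 9930485 to 13988444 in the MII oocytes of batch A. In batch B it ran from 7184205 to 17724506 in GV and from 2709280 to 19390128 in MI. The lowest total belonged to MI oocyte 15, which also had the fewest genes with a count, 12654. MII oocyte 1 had the most, 29816. In MI oocytes 4, 8 and 9 the HTSeq counts were a median of 1.13, 1.11 and 1.07 times the RSEM counts of the same gene, while the middle value over all 15 MI oocytes was 2.07. These 5 libraries stand apart from the others. Some values of spread, level per kilobase and correlation are also given without them, by a choice made after the data were seen. Spike-in RNA took 44663 to 143062 counts in each oocyte of batch A and at most 32 in batch B.

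The oocyte label was checked on marker genes, in CPM, the counts of a gene scaled to its library after TMM, a scaling within each batch to the genes that differ least between libraries. TMM multiplied the values scaled to library totals by 0.924 on average in GV and 1.10 in MII of batch A, and by 0.989 in GV and 1.03 in MI of batch B, with 1.49 in MI oocyte 15 at the most. All 14 oocyte markers averaged over 1 CPM in each of the 4 groups, and their summed level averaged 16363 CPM in GV and 11653 in MII of batch A, and 6569 in GV and 5396 in MI of batch B. Gdf9 was the most abundant in GV and MI and H1foo in MII. The 16 cumulus and granulosa markers together averaged 50.1 and 41.0 CPM in GV and MII of batch A, led by Cyp19a1, and 42.0 and 41.8 CPM in GV and MI of batch B, led by Cyp19a1 and by Nr5a2. Cyp19a1 and Nr5a2 held the largest parts of these sums, and the others went both ways. In batch A 10 of the 16 had a lower mean in MII than in GV and 6 a higher one, and in batch B 7 were lower in MI, 6 higher and 3 at 0. In batch A Hsd3b1 averaged 2.66 CPM in GV and 0.101 in MII, Inha 0.887 and 0.0622, and Ccnd2 3.46 and 0.0690. In batch B Ccnd2 averaged 3.59 CPM in GV and 0.248 in MI, and Gja1 3.13 and 0.276, while Nr5a2 averaged 11.7 and 20.1 and Has2 0.951 and 2.14. Of the 16, 9 averaged over 1 CPM in GV and 3 in MII of batch A, and 6 in GV and 4 in MI of batch B. In MI oocyte 15 the sum came to 80.1 CPM, the highest, of which Nr5a2 was 64.2 CPM, with 13 of the 16 at 0. Of these 16 genes, 1 was at 0 in every GV oocyte of batch A, 0 in every MII oocyte, and 3 in every GV and in every MI oocyte of batch B. The 8 blood and immune markers averaged 0.165, 3.12, 4.50 and 2.90 CPM in the groups GV and MII of batch A and GV and MI of batch B, with 16.7 CPM in MII oocyte 1. The 6 theca and stroma markers averaged 1.52, 1.20, 2.03 and 0.697 CPM in the same order. Whether RNA of other cells, depth or a single library plays a part in the results for the 10 genes was not tested unless a value without it is given.

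A gene was called changed between stages where the edgeR quasi-likelihood test gave a Benjamini-Hochberg adjusted p under 0.05 over all genes tested and the fold change exceeded 2. All 10 genes passed the filter on low counts in both batches. From GV to MII, 0 of the 10 were called by edgeR or by DESeq2 and 3 had an unadjusted p under 0.05, where 8.48% of 12929 genes were called. By adjusted p alone 1 of the 10 passed, Ythdf3, beside 20.6% of all genes. From GV to MI, 0 of the 10 were called by either tool and 2 had an unadjusted p under 0.05, where 0.121% of 12419 genes were called, and by adjusted p alone 0.145%. Scaled by TMM, 8 of the 10 genes were above 0 on the log2 scale from GV to MII with a median of 0.12, beside 50.9% of all genes and a median of 0.01, but scaled to spike-in RNA all 10 were below 0. Scaled to library totals with no TMM, an alternative chosen after the data were seen, 4 of the 10 were above 0 with a median of -0.13, beside a median of -0.24 over all genes, and 0 passed by adjusted p. Spike-in scaling moved the median over all genes from 0.01 to -0.72, so each value below is relative to the other RNA of its oocyte and depends on the scaling. In batch B 8 of the 10 were above 0 from GV to MI with a median of 0.12, beside 52.2% of all genes and a median of 0.02, and with library totals 8 were above 0 with a median of 0.07. The spike-in counts of that batch were too few for such scaling. The most abundant ribosomal RNA gene took 15.6% of the counts in GV and 21.7% in MII of batch A and 26.9% in GV and 28.3% in MI of batch B, and mitochondrial genes 1.84%, 2.86%, 2.06% and 1.57% in the same order. Without that ribosomal RNA gene 0 of the 10 genes were called in either batch and all 10 log2 values kept their direction in both. The part of the mitochondrial share in the results was not tested.

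**Figure D1:**
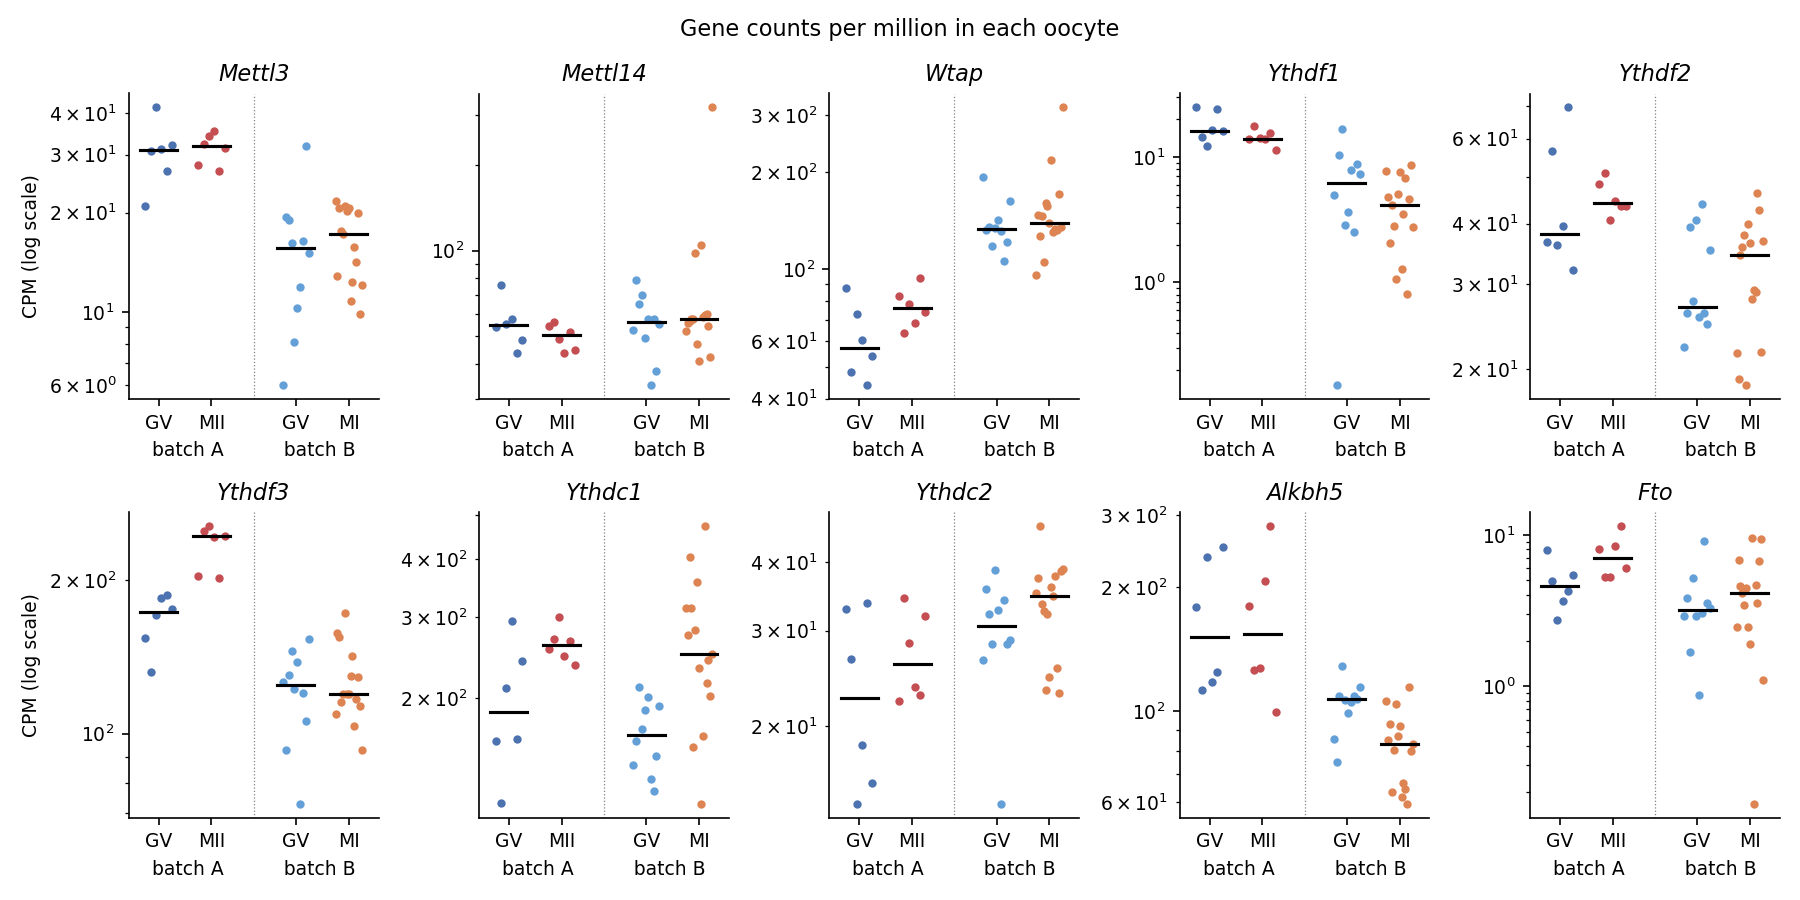
Each point is the level of a gene in 1 oocyte, in CPM within its batch on a log axis, for the 6 GV and 6 MII oocytes of batch A and the 10 GV and 15 MI oocytes of batch B. Ythdf3 in the MII oocytes lies above every GV oocyte of its batch on this scale, while with spike-in scaling its log2 change is -0.26, and MI oocyte 15 is the highest for Mettl14 and Wtap.

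**Figure D2:**
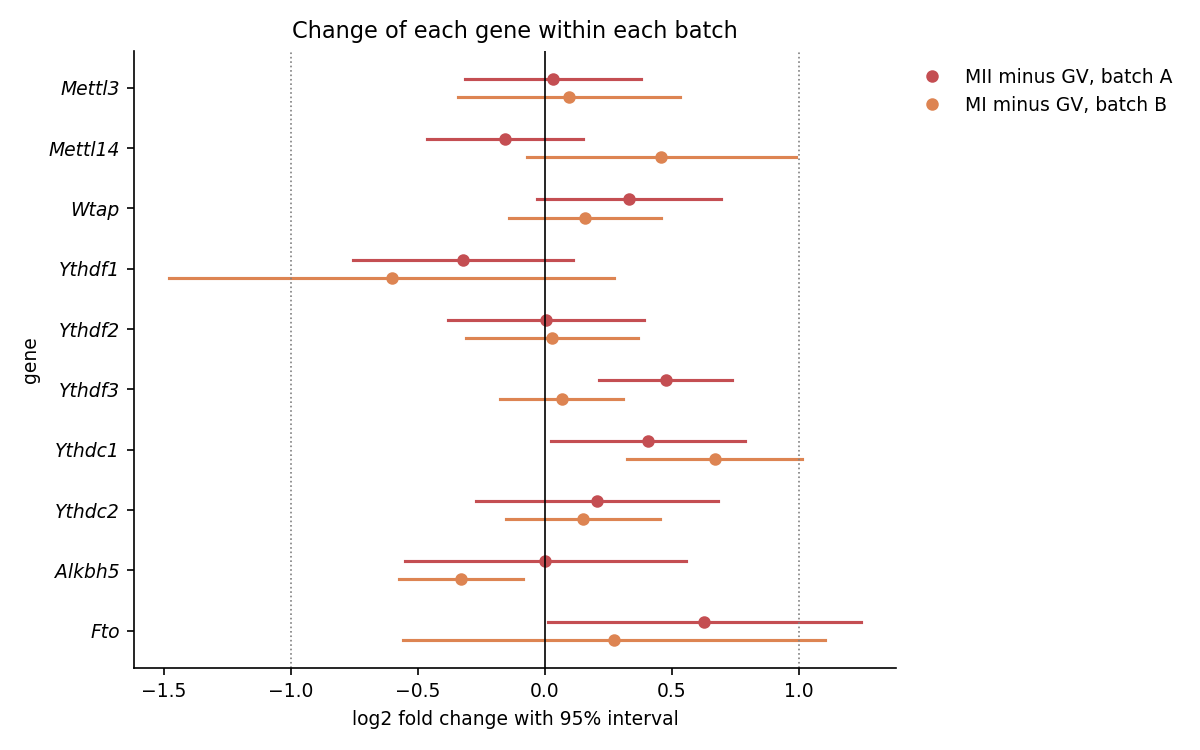
Log2 fold changes of the 10 genes from GV to MII in batch A and from GV to MI in batch B, with 95% intervals of the edgeR fit. The interval excludes 0 for Ythdf3, Ythdc1 and Fto in batch A and for Ythdc1 and Alkbh5 in batch B, on the TMM scale; with spike-in scaling all 10 values of batch A lie below 0.

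Mettl3 is the catalytic writer (ENSMUSG00000022160.18, GRCm38 chromosome 14, 52294841 to 52305128, minus strand). Its GV oocytes in batch A had 20.9 CPM at the lowest, a median of 31.0 and 41.7 at the highest, and its MII oocytes 26.8, 31.8 and 35.5. Every MII value lay inside the GV range, and the log2 fold change was 0.03 (SE 0.163, adjusted p 0.912). In batch B GV oocytes ran from 5.99 to 31.9 CPM and MI oocytes from 9.84 to 21.7, with a log2 fold change of 0.09 (adjusted p 0.927) that was -0.10 in HTSeq counts. The exons of Mettl3 share 933 bases, 18.4% of their length, with Tox4 on the opposite strand. Most Mettl3 counts belonged to the coding transcript Mettl3-201, with a mean share of 85.1% ± 9.54 (SD, n = 6) in GV and 85.4% ± 3.32 in MII of batch A, and 65.4% ± 12.3 (n = 10) in GV and 55.2% ± 22.1 (n = 15) in MI of batch B. Mettl3-215, a single-exon transcript that runs from the first exon into the first intron, held 4.34% and 4.03% in batch A and 11.6% and 20.3% in batch B. Its share reached 54.1% in 1 MI oocyte and was 0 in another. Between GV and MI Mettl3-215 had a log2 fold change of 1.29 with an unadjusted p of 0.025 and an adjusted p of 0.616.

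Mettl14 is the partner that helps Mettl3 bind RNA (ENSMUSG00000028114.16, chromosome 3, 123368297 to 123386108, minus strand). In batch A its GV oocytes ran from 43.4 to 75.6 CPM and its MII oocytes from 43.6 to 56.2, with a log2 fold change of -0.16 (adjusted p 0.481). In batch B the 10 GV oocytes had 33.5 CPM at the lowest, a median of 56.2 and 78.5 at the highest, and the 15 MI oocytes had 40.9, 57.3 and 319. The medians lay close together, and the MI maximum was MI oocyte 15. With it the log2 fold change was 0.46 (adjusted p 0.538), and without it 0.12 (adjusted p 0.865). With each of the 25 oocytes of batch B left out in turn the adjusted p of Mettl14 ran from 0.462 to 0.865. Wtap, the regulatory subunit (ENSMUSG00000060475.13, chromosome 17, 12966796 to 12994169, minus strand), was also highest in MI oocyte 15, at 316 CPM. Scaled to library totals with no TMM, that oocyte had 215 CPM for Mettl14, where the next of batch B had 90.1, and 213 for Wtap, where GV oocyte 1 had 207. Its MI median was 139 CPM and its GV median 133 in batch B, and the log2 fold change was 0.16 with that oocyte and 0.05 without it. In batch A Wtap ran from 43.9 to 87.5 CPM in GV and from 63.8 to 94.1 in MII. All 6 MII oocytes lay above the GV median and 1 above every GV oocyte, with a log2 fold change of 0.33 (SE 0.171, adjusted p 0.181). Nearly all Mettl14 counts were Mettl14-201, at mean shares of 97.2% to 99.6% over the 4 groups. Wtap split between the coding transcripts Wtap-201, at 60.2% in GV and 52.8% in MII, and Wtap-203, at 29.1% and 38.7%, which differ by 9 bases in length (2051 and 2060).

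Ythdf1, Ythdf2 and Ythdf3 encode cytoplasmic readers of the mark that are much alike, and their transcripts share no run of 75 bases with one another. Ythdf3 (ENSMUSG00000047213.14, chromosome 3, 16183212 to 16217037, plus strand) had 132 CPM in the lowest GV oocyte of batch A, a median of 173 and 187 in the highest, and 202, 244 and 255 in MII. All 6 MII oocytes lay above all 6 GV oocytes. The share of all genes whose groups do not overlap is not given for this or any later comparison. By adjusted p, another measure, 20.6% of all genes passed the test. The mean of Ythdf3 was 167 ± 20.8 CPM in GV and 233 ± 23.9 in MII (SD, n = 6 each), which differed by 0.48 on the log2 scale (SE 0.124, 95% interval 0.21 to 0.74, adjusted p 0.0136). The fold change was 1.39, under the 2 that a call needs. The adjusted p stayed under 0.05 with each of the 12 oocytes left out in turn, from 0.0133 to 0.0303, and in HTSeq counts (0.0131). It was 0.0916 with no filter on low counts, 0.0567 with oocyte number as a replicate block, and 0.34 with spike-in scaling, where the log2 value was -0.26. With library totals and no TMM the log2 value was 0.23 (adjusted p 0.282), and the groups overlapped, at 146 to 229 CPM in GV and 166 to 256 in MII. In batch B Ythdf3 had medians of 124 and 120 CPM, its groups overlapped, and the log2 fold change was 0.07 (adjusted p 0.903). The coding transcript Ythdf3-201 held 82.2% of its counts in GV and 78.7% in MII of batch A, and from GV to MII its log2 fold change was 0.39 (adjusted p 0.0555). Ythdf3-203, another coding transcript, held 7.95% and 8.99% in batch A and 12.6% and 12.2% in GV and MI of batch B.

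Ythdf2 (ENSMUSG00000040025.17, chromosome 4, 132184912 to 132212303, minus strand), the reader that brings marked RNA to decay, had medians of 38.0 CPM in GV and 44.1 in MII of batch A. The GV oocytes ran from 32.0 to 69.6 CPM and the MII oocytes from 40.7 to 51.0, inside the GV range, and the log2 fold change was 0.01 (SE 0.183, adjusted p 0.987). In batch B it was 0.03 (SE 0.167), with 4 of the 15 MI oocytes below every GV oocyte and 1 above. Ythdf1 (ENSMUSG00000038848.14, chromosome 2, 180904377 to 180920949, minus strand), a reader tied to translation, was the lowest of the 3 in CPM. It ran from 12.21 to 24.7 in GV and 11.4 to 17.4 in MII of batch A, and from 0.152 to 16.5 in GV and 0.807 to 8.63 in MI of batch B. Its log2 fold changes were -0.32 (adjusted p 0.283) and -0.60 (SE 0.431, adjusted p 0.657), and with spike-in scaling the first became -1.11 (adjusted p 0.00836), the single call among the 10 genes on that scale. There the median over all genes was -0.72, and the share of all genes that passed is not given. By adjusted p alone Mettl14 (-0.87, adjusted p 0.00716), Mettl3 (-0.68, adjusted p 0.0305) and Ythdf2 (-0.75, adjusted p 0.0347) also passed with spike-in scaling, where over the alternatives the adjusted p of Mettl14 reached 0.926, that of Mettl3 0.992 and that of Ythdf2 0.987. Over the alternatives the adjusted p of Ythdf1 in batch A ran from 0.00836 to 0.870. The coding Ythdf1-201 had a median share of 100% of Ythdf1 counts in every group.

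Some counts of Ythdf2 and Mettl3 belonged to transcripts that run on from the first exon into the intron, and the boundaries are shown because the transcripts differ there. The bases are GRCm38, minus strand, 5′ to 3′, with the end of the first exon in lower case and the bases after it in capitals, intron for Ythdf2-202 and Mettl3-215 and the second exon for Ythdf2-203 and Mettl3-201. Ythdf2-202 is shown from chr4:132211885-132211914 and Mettl3-215 from chr14:52304873-52304902.
Ythdf2-202: agcctcttggagcagGTACAGGCCCAGCCC
Ythdf2-203: agcctcttggagcagAGACCAAAAGGTCAA
Mettl3-215: actctgggcacttggGTGAGGTGCGGGGTG
Mettl3-201: actctgggcacttggATTTAAGGAACCCAG
Ythdf2-202 holds the whole intron of 443 bases, while Mettl3-215 ends inside an intron of 4486 bases, so unspliced Mettl3 and a short transcript cannot be told apart in its counts. The mean share of Ythdf2-202 in the counts of Ythdf2 was 4.29% in GV and 11.6% in MII of batch A and 16.5% in GV and 21.2% in MI of batch B. The spliced Ythdf2-203 held 94.6%, 87.9%, 83.2% and 78.4% in the same groups. In each group at least 1 oocyte had no Ythdf2-202, and the highest share was 50.5% in an MI oocyte.

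Ythdc1, the nuclear reader (ENSMUSG00000035851.14, chromosome 5, 86804221 to 86836659, plus strand), had the smallest p of the 10 genes from GV to MI. Its 10 GV oocytes in batch B had 126 CPM at the lowest, a median of 166 and 211 at the highest, and its 15 MI oocytes 118, 249 and 473. Of the MI oocytes 11 lay above every GV oocyte and 1, MI oocyte 9, below every one on the TMM scale. With library totals and no TMM 7 lay above and 1 below. The share of all genes with such counts is not given, and 0.145% of all genes passed by adjusted p. The mean of Ythdc1 was 168 ± 29.8 CPM in GV (SD, n = 10) and 266 ± 95.7 in MI (n = 15), a log2 fold change of 0.67 (SE 0.170, 95% interval 0.32 to 1.01). The unadjusted p was 0.000393 and the adjusted p 0.106, so Ythdc1 did not pass. Over the alternatives the adjusted p ran from 0.0183 in DESeq2 to 0.849 in HTSeq counts; it was 0.0262 without MI oocyte 9 and 0.0421 without MI oocytes 4, 8 and 9. From GV to MII the medians were 187 and 261 CPM, all 6 MII oocytes lay above the GV median and 1 above every GV oocyte. The log2 fold change was 0.41 (SE 0.181, adjusted p 0.122), and the adjusted p was 0.0356 without GV oocyte 4.

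The transcript that held the most Ythdc1 counts over all oocytes was Ythdc1-209, which the annotation types as a retained intron. It is a single exon of 3335 bases, chr5:86806411-86809745 on the plus strand of GRCm38, inside the first intron of the coding transcript Ythdc1-203. That intron has 11037 bases, of which 1819 come before Ythdc1-209 and 5883 after it. Ythdc1-209 shares 36 bases with an exon of Ythdc1-208 and none with the other Ythdc1 transcripts, and 4.02% of its runs of 75 bases also occur in transcripts of 22 other genes. Of the runs of Ythdc1-203, 17.6% also occur in Gm43055, a noncoding gene on the same strand that shares 631 bases with the exons of Ythdc1, and the part of this overlap in either kind of count was not tested. The splice junction and the start of Ythdc1-209 are shown because they separate the forms, with capitals for the second exon of Ythdc1-203 and for the bases of Ythdc1-209.
Ythdc1-203: gccgggaggagaaagATGGGGAACTTAATG
Ythdc1-209: GTGAGTTCCAGGACAAGTCAGGACTACACA
The share of Ythdc1-209 in the counts of Ythdc1 was 69.3% in the lowest GV oocyte of batch A, 73.6% at the median and 82.1% in the highest, and 67.0%, 71.1% and 77.7% in MII. In batch B it was 38.0%, 49.5% and 61.9% in GV and 12.9%, 60.9% and 80.7% in MI. The GV oocytes of batch A lay all above those of batch B, GV and MII of batch A overlapped, and MI spread to both sides of GV. The lowest MI shares, 12.9% and 20.8%, were those of MI oocytes 15 and 9, of the libraries that stand apart, and the other MI oocytes ran from 38.1% to 80.7%. The share of the coding transcript Ythdc1-203 averaged 11.8% in GV and 13.5% in MII of batch A, and 34.9% in GV and 29.9% in MI of batch B. Ythdc1-204, a retained-intron transcript of 4 exons at the other end of the gene, averaged 9.24% and 10.2% in batch A and 1.90% and 1.33% in batch B. All retained-intron transcripts of Ythdc1 together held 83.3%, 81.9%, 50.3% and 58.3% of its counts in the 4 groups in the same order.

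**Figure D3:**
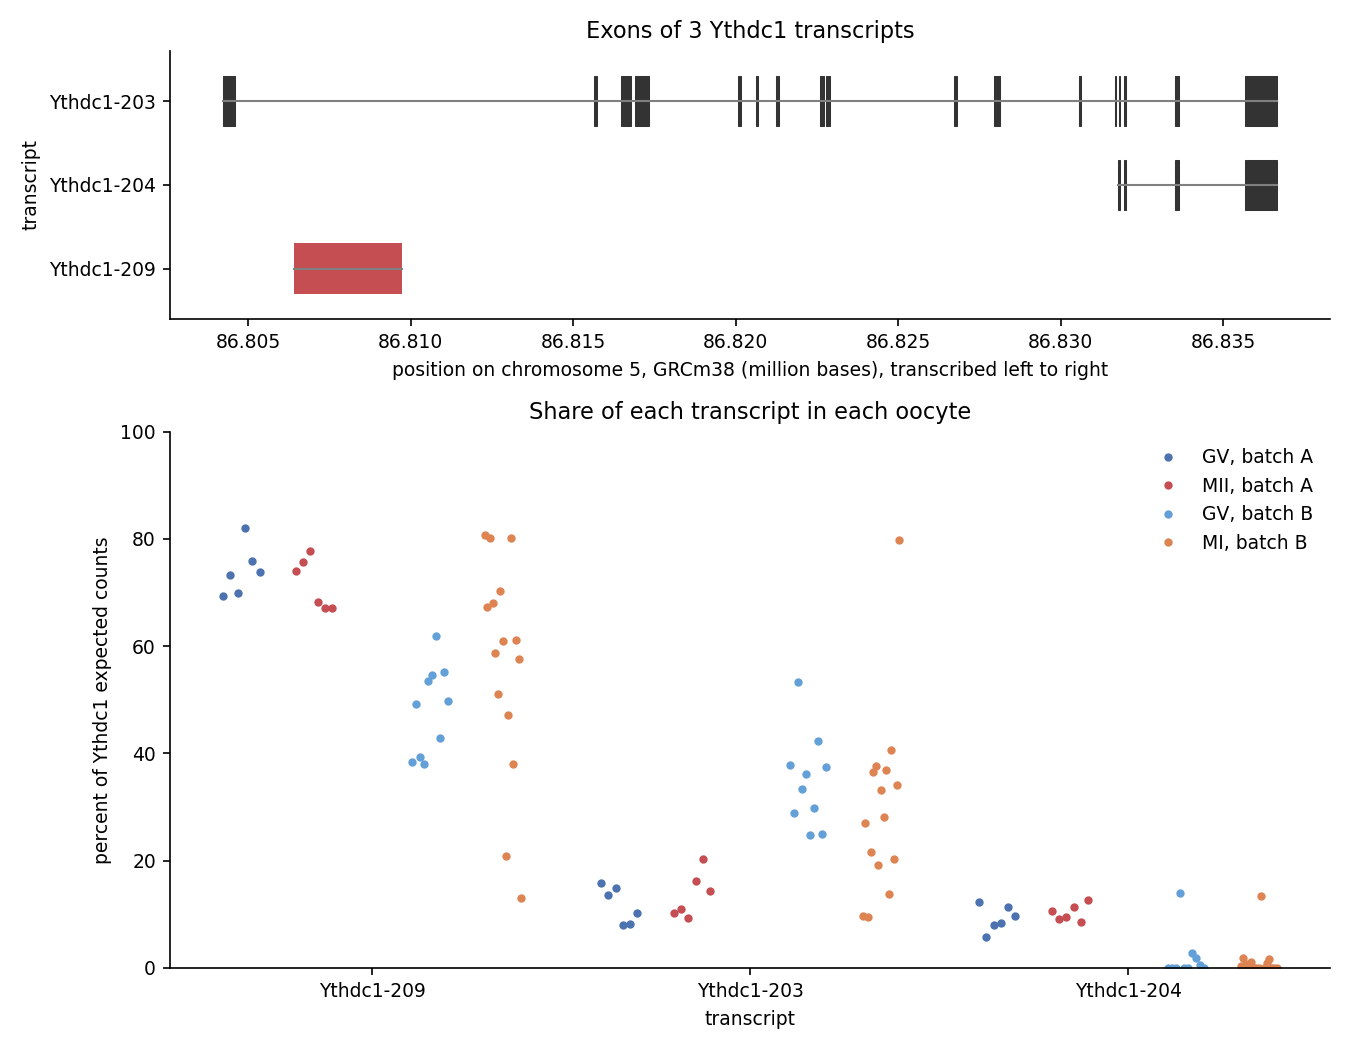
Exons of Ythdc1-203, Ythdc1-204 and Ythdc1-209 by position on chromosome 5 (GRCm38), and the percent of Ythdc1 counts that each of them holds, with 1 point per oocyte and colours for the 4 groups. Ythdc1-209 lies inside the first intron of Ythdc1-203 and holds 38.0% to 82.1% of the counts in GV oocytes.

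In CPM of its own, Ythdc1-209 had 54.7 at the lowest, a median of 84.0 and 110 at the highest in the GV oocytes of batch B, and 24.4, 145 and 380 in MI. Of the 15 MI oocytes 10 lay above every GV oocyte and 2 below every one. The log2 fold change was 1.02 (SE 0.330, unadjusted p 0.00445, adjusted p 0.414). From GV to MII the log2 fold change of Ythdc1-209 was 0.33 (adjusted p 0.378), and that of Ythdc1-203 was 0.64 (unadjusted p 0.0187, adjusted p 0.114). The other kind of gene count, HTSeq, gave Ythdc1 far fewer reads for its RSEM counts than it gave other genes. The ratio of the means was 0.475 in batch A and 0.57 in batch B, at percentiles 1.29 and 1.68 of 6735 well-covered genes, whose medians were 2.02 and 1.93. With Ythdc1-209 taken out of the RSEM counts, the ratio per oocyte averaged 1.79 in GV and 1.76 in MII of batch A and 1.56 in GV and 1.36 in MI of batch B.

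Gene counts of Ythdc1 without Ythdc1-209, an alternative chosen after its share had been seen, gave another picture of each comparison. In batch A these counts had 31.5 CPM at the lowest, a median of 51.0 and 63.5 at the highest in GV, and 65.4, 72.4 and 87.5 in MII. All 6 MII oocytes lay above all 6 GV oocytes, and the log2 fold change was 0.56 (SE 0.171, 95% interval 0.20 to 0.92, adjusted p 0.0276). HTSeq counts gave 42.0, 69.9 and 82.9 CPM in GV and 84.7, 103 and 105 in MII, also without overlap, and a log2 fold change of 0.57 (SE 0.170, adjusted p 0.0287). Over the alternatives the adjusted p of Ythdc1 from GV to MII ran from 0.0276 to 0.523, and with spike-in scaling of all its counts the log2 value was -0.26. In batch B the counts without Ythdc1-209 had a median of 87.7 CPM in GV and 93.1 in MI, with 3 of 15 MI oocytes above every GV oocyte. The log2 fold change was 0.23 (SE 0.166, adjusted p 0.663), and 0.20 (SE 0.160, adjusted p 0.849) in HTSeq counts. The difference of Ythdc1 from GV to MI was thus smaller in the counts without the intronic transcript, and that from GV to MII was not. In the counts of Ythdc1-209, unspliced Ythdc1 RNA, another RNA inside the intron and reads that also match elsewhere cannot be told apart. This holds for every level, share, rank and correlation of Ythdc1 that includes these counts. Why HTSeq gave Ythdc1 so few reads was not tested. The position and length of Ythdc1-209 are those of GENCODE M21, while the counts were made with VM20, whose models may differ. What makes its share differ between oocytes was not tested.

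Ythdc2, a reader with a helicase domain that is needed for entry into meiosis (ENSMUSG00000034653.11, chromosome 18, 44827746 to 44889724, plus strand), had medians of 22.5 CPM in GV and 26.0 in MII of batch A. The log2 fold change was 0.21 (SE 0.226, adjusted p 0.554). In batch B the medians were 30.6 CPM in GV and 34.7 in MI, with a log2 fold change of 0.15 (adjusted p 0.779) and overlapping groups. Its counts were split between the coding Ythdc2-201 and Ythdc2-203, which the annotation types as subject to nonsense-mediated decay. The share of Ythdc2-203 had a median of 34.1% in GV and 24.6% in MII of batch A, and of 0 in GV and 0.210% in MI of batch B. The batches still overlapped, since 12.3% was the lowest GV share of batch A and 31.5% the highest of batch B.

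Alkbh5, the eraser that acts in the nucleus (ENSMUSG00000042650.3, chromosome 11, 60536381 to 60558512, plus strand), had 75.05 CPM in the lowest GV oocyte of batch B, a median of 107 and 128 in the highest, and 59.4, 82.9 and 114 in MI. Of the 15 MI oocytes 1 lay above the GV median and 5 below every GV oocyte. The log2 fold change was -0.33 (SE 0.1202, 95% interval -0.57 to -0.08, unadjusted p 0.00994, adjusted p 0.251), so Alkbh5 did not pass. In batch A the GV oocytes ran from 112 to 251 CPM and the MII oocytes from 99.2 to 282, with medians of 152 and 154. The log2 fold change there was 0.00 (SE 0.262, adjusted p 0.998). Almost all its counts, on average at least 99.7% in each group, belonged to Alkbh5-201. Fto, the other eraser (ENSMUSG00000055932.15, chromosome 8, 91313525 to 91668439, plus strand), was the lowest of the 10 genes in CPM in batch A. It had 2.75, 4.59 and 7.91 CPM at the lowest, median and highest GV oocyte and 5.23, 7.07 and 11.4 in MII. All 6 MII oocytes lay above the GV median and 3 above every GV oocyte, with a log2 fold change of 0.63 (SE 0.292, unadjusted p 0.0464, adjusted p 0.138). In batch B Fto ran from 0.879 to 9.08 CPM in GV and from 0.166 to 9.47 in MI, and its log2 fold change was 0.27 (SE 0.408, adjusted p 0.875). The coding Fto-201 held 98.5% of its counts in GV and 94.6% in MII of batch A, and 64.2% in GV and 76.3% in MI of batch B. There Fto-205 held 17.8% and 5.85%, and Fto-207 15.1% and 12.4%, each at 0 in some oocytes.

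Of the 62 annotated transcripts of the 10 genes 23 had enough counts to be tested in each batch. From GV to MII 0 were called by edgeR or DESeq2 and 4 had an unadjusted p under 0.05 (Ythdf3-201, Ythdf3-202, Ythdc1-203 and Wtap-203), where 5.58% of 22461 transcripts were called. In batch B 0 were called by either tool and 3 had an unadjusted p under 0.05 (Ythdc1-209, Alkbh5-201 and Mettl3-215), where 0% of 22717 transcripts were called by edgeR, 1615 had an unadjusted p under 0.05 and 103 were called by DESeq2. Transcript usage, the share of a gene's counts that each transcript holds, was tested for 6 of the 10 genes in batch A and for 5 in batch B with edgeR. In both batches 0 of them passed and 0 had an unadjusted p under 0.05, and limma-voom passed 0, where edgeR passed 2.39% of 5477 genes in batch A and 0.0723% of 5535 in batch B.

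The GV oocytes of both batches were compared to learn how far the batches differ at 1 stage, in CPM on a scale shared by those 16 oocytes. Of the 10 genes 1 was called by edgeR, Wtap, where 19.3% of 13265 genes were called, and 3 passed by adjusted p alone beside 35.2% of all genes. Wtap had 33.8 CPM at the lowest, a median of 46.2 and 72.8 at the highest in batch A, and 129, 162 and 237.5 in batch B. All 10 GV oocytes of batch B lay above all 6 of batch A, with a log2 difference of 1.76 (SE 0.178, adjusted p 8.245e-08). With library totals, which put the median over all genes at -0.70 beside -0.02 with TMM, 3 of the 10 were called, Wtap (1.10, adjusted p 2.61e-05), Mettl3 (-1.05, adjusted p 0.00289) and Ythdf1 (-1.62, adjusted p 0.00398), as were 4325 of 13265 genes. On the TMM scale Ythdc2 averaged 19.2 CPM in batch A and 36.6 in batch B, with 9 of 10 above every oocyte of batch A. The log2 difference was 0.94 (SE 0.225, adjusted p 0.00204). With library totals the groups overlapped, at 14.9 to 41.4 CPM in batch A and 11.4 to 41.3 in batch B. Mettl14 averaged 45.3 CPM in batch A and 67.7 in batch B on the TMM scale, with 7 of 10 above every oocyte of batch A. The log2 difference was 0.58 (SE 0.184, adjusted p 0.0163). With library totals Mettl14 ran from 49.8 to 83.4 CPM in batch A and from 26.4 to 87.6 in batch B, with the lower mean in batch B. Ythdc1 differed with TMM by a log2 of 0.35 (adjusted p 0.121) in all its counts. Without Ythdc1-209 it had medians of 41.3 and 107 CPM, all 10 of batch B above all 6 of batch A, and a log2 difference of 1.39 (SE 0.196, adjusted p 5.465e-06), and HTSeq counts gave 1.10 (adjusted p 9.673e-05). Over these 3 kinds of counts the adjusted p of Ythdc1 between the batches ran from 5.465e-06 to 0.121. The labels give a batch as a letter alone, so the cause of these differences was not tested.

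Whether a gene's change to MII in batch A differed from its change to MI in batch B was tested as the difference of both changes, over all 37 oocytes. Of the 10 genes 0 were called by edgeR or DESeq2 and 1 had an unadjusted p under 0.05, where 4.03% of 15083 genes were called and 5.46% passed by adjusted p alone. That gene was Ythdf3, with a log2 difference of 0.48 (SE 0.190, unadjusted p 0.0145, adjusted p 0.142). For Ythdc1 the difference was -0.19 (SE 0.273, adjusted p 0.811) and for Mettl14 it was -0.54 (SE 0.393, adjusted p 0.528). In it stage, batch and maturation, after hCG in the animal or in culture, cannot be told apart beyond the shared GV stage.

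Levels of the 10 genes were set against each other per kilobase of transcript, as the sum over transcripts of CPM divided by length. In the GV oocytes of batch A Ythdc1 came first with a mean level of 69.7 CPM per kilobase, before Ythdf3 (40.1), Alkbh5 (30.2), Wtap (29.9), Mettl14 (21.4), Mettl3 (19.6), Ythdf2 (11.8), Ythdf1 (5.70), Ythdc2 (4.08) and Fto (1.36). Neighbours in that order overlapped except Ythdf2 with Ythdf1 and Ythdc2 with Fto. In MII Ythdc1 (92.7) and Ythdf3 (57.2) again led in level per kilobase, without overlap with each other, and Fto (2.27) was last. In batch B Wtap led in GV (68.3) before Ythdc1 (52.9) and Ythdf3 (33.7), and in MI Ythdc1 (82.3), Wtap (75.2) and Ythdf3 (39.8) came first, where all neighbours overlapped. Without the libraries that stand apart the order of the 10 genes was the same in MII and MI, with means in MI of 86.6 for Ythdc1, 66.9 for Wtap and 21.5 for Mettl14, which was 28.0 with them. Without Ythdc1-209 the level of Ythdc1 was 24.7, 36.1, 28.4 and 32.6 CPM per kilobase in the groups GV and MII of batch A and GV and MI of batch B. It then ranked 4 in GV of batch A and 3 in the other groups. HTSeq counts per kilobase of joined exons put Ythdf3 first in every group, with 49.4, 70.7, 47.3 and 49.9 CPM per kilobase, and Ythdc1 at rank 8 in GV of batch A and 6 in the others. That rank of Ythdc1 rests on a joined exon length of 13651 bases, which takes in the retained-intron transcripts, while Ythdc1-203 has 3269 bases. At the bottom the levels per kilobase of Ythdf1, Ythdc2 and Fto held the last 3 places of all 4 groups in RSEM counts. In HTSeq counts Fto was last in every group, but Ythdf1 ranked 6 in GV and 7 in MII of batch A, Ythdc2 ranked 7 in both groups of batch B, and the last 3 places also held Ythdc1 in GV of batch A and Mettl3 in the other groups.

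The spread between oocytes is given by stage with no test. In batch A the coefficient of variation was lower at MII in 9 of the 10 genes, and its median went from 30.5% to 12.5%, while it was lower in 52.1% of all genes, whose medians were 29.2% and 28.4%. It was 32.8% in GV and 8.21% in MII for Ythdf2, and 32.0% and 8.45% for Ythdc1. The exception was Alkbh5, with 36.5% and 39.7%. In batch B it was lower at MI in 4 of the 10 genes, with medians of 23.4% and 31.0%, and in 36.1% of all genes, with medians of 40.9% and 47.2%. Without the libraries that stand apart it was lower at MII in 9 of the 10 genes, with a median of 12.9%, and at MI in 7 of the 10, with a median of 24.4%, beside 44.7% of all genes. These spreads include the depth of each library.

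Across the 37 oocytes the correlation of log2 levels between pairs of the 10 genes had a median of -0.044 over 45 pairs once the mean of each group had been removed, as a description, since all values of an oocyte share its library and depth. It ran from -0.439 for Ythdc2 with Alkbh5 to 0.557 for Mettl14 with Wtap. The latter was 0.078 within batch A and 0.648 within batch B, and without the libraries that stand apart it was 0.076 over the other 32 oocytes and 0.087 within batch B. For each of the 10 genes the 3 other genes with the highest correlation were listed by the same measure, out of 7172 or 7173 candidates. The highest of so many values are large by selection alone, and none was tested. Mettl14 was closest to Metap2 (0.892), Hmgn1 (0.86) and Cwf19l2 (0.843), Wtap to Epb41 (0.779), Dyrk1a (0.752) and Ankrd13c (0.743), and Mettl3 to Gpr137b (0.699), Snx15 (0.607) and Arrdc1 (0.542 within batch A and 0.525 within batch B). Hmgn1 with Mettl14 had 0.9 in batch B and -0.048 in batch A, and 0.503 over both without the libraries that stand apart. Among readers Ythdc1 was closest to Enah (0.863), Gm42732 (0.858) and Gm48632 (0.851), and Ythdf3 to Top2b (0.712), Acbd3 (0.666) and Wdr43 (0.656). Ythdf1 was closest to Med14 (0.661), Zfyve21 (0.637) and Inpp5a (0.618), Ythdf2 to Prdm6 (0.633), Ppp3cb (0.61) and Rpp30 (0.608), and Ythdc2 to Fgfr1op (0.677), Gm45040 (0.658) and Eif4g2 (0.601). Among erasers Alkbh5 was closest to Zdhhc18 (0.791), Zfp212 (0.787) and Fbrsl1 (0.785), and Fto to Ddr2 (0.62), Pgk1 (0.563) and Creld2 (0.545). Within batch A some of these were below 0: Pgk1 with Fto had -0.392 there and 0.635 in batch B, and Zfyve21 with Ythdf1 had -0.113 and 0.673. Correlations under 0.2 in batch A were those of Top2b with Ythdf3 (0.152, and 0.811 in batch B), Gpr137b with Mettl3 (0.187 and 0.744), Inpp5a with Ythdf1 (0.132 and 0.664) and Creld2 with Fto (0.138 and 0.618). Those of Ythdc1 were at least 0.806 in batch A and 0.873 in batch B, in gene counts that include its intronic transcript. Whether they hold in counts of Ythdc1 without that transcript was not tested, so they may belong to the intronic counts rather than to spliced Ythdc1.

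Another 33 genes of the m6A pathway were listed, among them partners of the writers, other methyltransferases, other reported readers, enzymes of methyl donor supply and partners of readers. In batch A 29 of them were tested, 0 were called by edgeR or DESeq2 and 11 had an unadjusted p under 0.05. By adjusted p alone 6 were higher and 1 lower in MII when scaled by TMM, beside 20.6% of all genes. With spike-in scaling, where the median over all genes was -0.72, 5 were called, all as lower. With library totals, where that median was -0.24, 1 was called, Nxf1 (-1.08, adjusted p 0.000365). The shares of all genes called on these scales are not given. Nxf1, the exporter of messenger RNA, averaged 69.9 ± 7.93 CPM in GV and 39.4 ± 6.43 in MII (SD, n = 6 each). All 6 MII oocytes lay below all 6 GV oocytes, and the log2 fold change was -0.83 (SE 0.141, adjusted p 0.000894). Srsf3, a splicing factor that Ythdc1 binds, had 0.67 (adjusted p 0.00609), and the RNA exonuclease Xrn1 had 0.63 (adjusted p 0.00787), each with 6 of 6 MII oocytes above all GV oocytes. In batch B 31 were tested, 0 were called by edgeR or DESeq2 and 0 had an unadjusted p under 0.05, with Trmt112 (-0.56), Xrn1 (0.29) and Ddx6 (0.33) at the smallest adjusted p values, from 0.468. Between the GV oocytes of the batches, scaled by TMM, 10 of 31 were called beside 19.3% of all genes. By adjusted p 14 passed as higher in batch B and 5 as lower, beside 35.2% of all genes. The median log2 difference was 0.75 beside -0.02 over all genes, and library totals put that over all genes at -0.70. The 10 were Virma, Zc3h13 and Rbm15b among writer partners, the methyltransferase Zcchc4, the readers Igf2bp3 and Fmr1, Mat2b of the methyl donor supply, and Cnot1, Srsf3 and Xrn1 among partners of readers. The smallest adjusted p values there were those of Cnot1 (log2 difference 1.63, adjusted p 5.356e-08), Mat2b (-1.35, 1.833e-07) and Igf2bp3 (1.65, 3.104e-07). With library totals only Zc3h13, Mat2b and Srsf3 of the 10 stayed called. On that scale Zc3h13 was higher in batch B (log2 difference 1.33). Mat2b, Srsf3, Cbll1, Mettl5, Trmt112, Prrc2a, Mat2a and Nxf1 were called as lower. The change to MII and the change to MI differed by adjusted p in 2 of 31 beside 5.46% of all genes, with 0 called by edgeR or DESeq2 and 8 at an unadjusted p under 0.05. These were Mat2b (log2 difference 0.74, SE 0.202, adjusted p 0.0199) and Nxf1 (-0.81, SE 0.253, adjusted p 0.0484), and Srsf10 (0.60, adjusted p 0.0566) came next.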

How the data were processed

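RNA of 37 single oocytes was measured. The authors trimmed reads with Trim Galore 0.6.4, aligned them with STAR 2.7.6a to mm10 with GENCODE VM20 and spike-in sequences, and deposited HTSeq 0.12.4 counts per gene, raw read counts with no scaling. The authors also deposited RSEM 1.3.1 expected counts per gene and per transcript, which share ambiguous reads among features, with no scaling. How HTSeq treated strand and overlapping genes is not stated.

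Expected counts were rounded to whole numbers, spike-ins left out, low counts filtered with filterByExpr, and libraries scaled by TMM. Genes and transcripts were tested with edgeR 4.0.16 (quasi-likelihood, Benjamini-Hochberg over all features tested) in R 4.3.3, and transcript usage with edgeR diffSpliceDGE (Simes). Alternatives used DESeq2 1.42.0, limma 3.58.1, RLE or spike-in scaling, no filter, HTSeq counts, a replicate block, batch as a covariate, no fold threshold, removal of the most abundant ribosomal RNA gene, and leaving out oocytes. Intervals are those of the fits at 95%. The code was tested on simulated data. Feature names and positions came from GENCODE M21 (GRCm38), which matched 54723 of 54844 gene and 138789 of 138927 transcript identifiers, spike-ins included in the totals; sequences came from its transcripts. Figures used Python 3.11.15 with numpy 2.4.6 and matplotlib 3.10.9.

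The genes and lists were chosen with earlier results of these data known. Named were all 10 genes, their transcripts with a mean share of at least 10% in any group, the called genes of the wider list and the 3 with the smallest adjusted p in each comparison, and for each gene the 3 with the highest Pearson r among genes with a mean of at least 100 expected counts. Ythdf3-202, Ythdc1-208 and the other transcripts or genes named outside this rule were chosen after their values were seen, as were the counts of Ythdc1 without Ythdc1-209, HTSeq counts without MI oocytes 4, 8 and 9, library totals with no TMM, and values without MII oocyte 1 and MI oocytes 4, 8, 9 and 15.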

Additional observations from a re-analysis of the deposited data

Results flagged for a closer look

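In 3 of the 30 groups of at most 10 oocytes, over the 10 genes, 1 oocyte lay far from the others of its group, where chance gives about 1 in 20 groups. Mettl3 was at 31.9 CPM in GV oocyte 9 of batch B, and the nearest of the other GV oocytes was at 19.4 CPM. Ythdc2 was at 14.4 CPM in GV oocyte 7 of batch B, and the nearest of the others was at 26.5 CPM. Fto was at 9.08 CPM in GV oocyte 8 of batch B, and the nearest of the others was at 5.17 CPM. Groups of MI oocytes, with 15 each, were not tested this way; there Mettl14 was at 319 CPM in MI oocyte 15, and the next MI oocyte was at 104 CPM.

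For Mat2b, a regulatory subunit of the enzyme that makes the methyl donor, the log2 change from GV to MII in batch A exceeded that from GV to MI in batch B by 0.74 in the test of the difference. For Nxf1, the exporter of messenger RNA, the same difference was -0.81. In the wider list 2 of 31 genes passed this test by adjusted p, beside 5.46% of all genes. Stage, batch and maturation in the animal or in culture cannot be told apart in either gene.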

How the results depend on the processing

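Of the log2 fold changes of the 10 genes under alternatives, 539 kept their direction and their side of the threshold, 40 changed direction and 1 newly passed. Of the 539, 105 in batch A and 243 in batch B came from leaving out 1 oocyte, in fits that share nearly all oocytes. In the main fits 0 of the 10 genes were called, so most could only stay on their side. In batch A, spike-in scaling put below 0 the values of Mettl3 (-0.68), Wtap (-0.45), Ythdf2 (-0.75), Ythdf3 (-0.26), Ythdc1 (-0.26), Ythdc2 (-0.62), Alkbh5 (-0.74) and Fto (-0.15), and called 1 gene (Ythdf1) and 1 transcript (Ythdf1-201); the cause was not tested. Scaled to library totals with no TMM, Mettl3 (-0.20), Ythdf2 (-0.27), Ythdc2 (-0.052) and Alkbh5 (-0.26) were below 0 in batch A. With no filter on low counts Ythdf2 was at -0.018 and Alkbh5 at -0.047. With the replicate block Alkbh5 was at -0.0051 in batch A and Ythdf2 at -0.064 in batch B, and the counts of calls were 0 in both batches. Mettl3 in batch B was at -0.10 in HTSeq counts and at -0.22 in HTSeq counts without MI oocytes 4, 8 and 9. Leaving out 1 oocyte in turn gave -0.053 to 0.14 for Mettl3, -0.075 to 0.17 for Ythdf2 and -0.20 to 0.15 for Alkbh5 in batch A, and -0.00090 to 0.28 for Mettl3 and -0.019 to 0.095 for Ythdf2 in batch B. It gave 0 to 1 called transcripts from GV to MII, the 1 being Ythdc1-201 (log2 1.47, adjusted p 0.0205) without GV oocyte 6. By adjusted p alone 1 of the 10 genes passed from GV to MII, beside 20.6% of all genes. Between the GV oocytes of the batches 3 passed, beside 35.2%. There HTSeq counts called 2, counts without Ythdc1-209 called 2 and library totals 3. For the wider list in batch A, 1 gene was called with no filter (Rbm46, at 0 in all GV oocytes), 5 with spike-in scaling, 1 with library totals (Nxf1) and 7 by adjusted p alone. Library totals also called 1, Nxf1, in the difference of changes (-1.10). By adjusted p alone 19 of that list passed between the GV oocytes of the batches and 2 in the difference of changes. The shares of all genes there were 35.2% and 5.46%, while those under the other settings are not given in this section. The causes were not tested.

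The p-values measure the spread between these oocytes, not between animals. Same-numbered oocytes of 2 stages had correlations from -0.327 to 0.341 in batch A and from -0.146 to 0.107 in batch B. The interval of the log2 change from GV to MI was -1.48 to 0.27 for Ythdf1 and -0.56 to 1.10 for Fto.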
